A study of Mus musculus with 2 samples.

Results

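The 9 genes described here are feedback brakes on inflammatory signalling: the RNA-binding genes Zfp36, Zfp36l1 and Zfp36l2, and the MAP kinase phosphatase genes Dusp2, Dusp4, Dusp5, Dusp6, Dusp10 and Dusp16. They were chosen by name from these 2 families, with earlier results of these data known. They are 9 of 21911 protein-coding genes of the GENCODE M21 annotation on the 21 assembled mouse chromosomes. For each gene a promoter region was an accessible region that came within 1 kb of at least 1 of its annotated start sites. A distal region had its summit over 1 kb from every annotated start site and within 50 kb of the gene's 5'-most start site.

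Accessible chromatin was mapped by ATAC-seq, which uses a transposase to tag open DNA with adapters, in neutrophils from the peripheral blood of C57BL/6J mice aged 5 to 6 weeks. There was 1 group of 2 libraries, replicates 1 and 2, each started from 50000 primary cells, with no treated or mutant group. The labels name both as biological replicates and give them the same donor entry, so whether they came from separate mice is not known here. The study therefore implies a description of where the neutrophil genome was open, and the values of the 9 genes are set against all protein-coding genes.

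ZFP36 proteins bind AU-rich elements in short-lived mRNAs, many of them encoding cytokines, and recruit deadenylases that start their decay. Dual-specificity MAP kinase phosphatases remove phosphates from activated ERK, p38 and JNK kinases, and many of their genes are induced by the very kinases they switch off. In myeloid cells both families are known for limiting the size and length of an inflammatory response.

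The thresholded lists (IDR, a filter that keeps peaks ranked reproducibly) held 27709 merged regions in replicate 1 and 14548 in replicate 2, and the pooled conservative list held 24882. Distal regions numbered 15565 in replicate 1, 5521 in replicate 2 and 13238 in the pooled list, so a distal region missing from replicate 2 was read against its shorter list. The lists give no read depth. Of the neutrophil markers, 4 of 10 had a promoter region in both thresholded lists (Itgb2, Clec4e, Tlr4 and S100a9), close to the 39.8 percent of all genes that did. In the replicate 1 list alone 9 of 10 did, against 10317 of 21911 protein-coding genes. Ly6g had no promoter region in either thresholded list. Markers of other blood cells were also open: 5 of 6 for B cells, 1 of 4 for T cells (Cd3d), 0 of 5 for monocytes, 1 of 4 for platelets and 0 of 4 for erythroid cells had a promoter region in both replicates. In the replicate 1 list alone the counts were 6 of 6 for B cells, 1 of 4 for T cells and 0 of 5 for monocytes. Platelets had 2 of 4 there and erythroid cells 1 of 4. The part of such cells in the regions described here was not tested.

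All 9 genes had a promoter region in both replicates, against a background of 39.8 percent of all protein-coding genes. The looser pseudoreplicated lists also held one for 9 of 9 genes, against 49.8 percent of all genes, and the pooled list for 9 of 9, against 46.7 percent. CpG-rich promoters are open more often than others, and 7 of the 9 genes had a CpG-rich 5'-most start site, against 44.4 percent of all genes. Among genes with such a start site, 7 of 7 of these and 66.8 percent of all had a promoter region in both replicates. Being open in both libraries was therefore common among genes of this promoter type. Zfp36 and Dusp10 had no CpG-rich 5'-most start site, but each had a promoter region over a CpG-rich start site further downstream. The observed over expected CpG ratio there was 0.603 for Zfp36, just above the 0.6 limit, and 0.687 for Dusp10. For all genes the CpG class was taken at the 5'-most start site alone.

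The promoters were open but mostly low in the authors' signal value, a score per peak with no stated unit that was used only to rank regions within a list. The median over the 9 genes of the strongest promoter signal was 8.97 in replicate 1 and 8.05 in replicate 2, against 12.4 and 13.9 over all genes with a promoter region. These values lay at a median percentile of 32.3 among the promoter regions of replicate 1 and 9.11 among those of replicate 2. When only peaks at or above the median signal of their list were kept, Dusp5 and Dusp10 alone still had a promoter region in both replicates, 2 of 9 genes, against 30.4 percent of all genes. Ranked by the deposited −log10 p instead, a measure tried after the data were seen, the median percentile was 51.2 in replicate 1 and 27.0 in replicate 2, so how low the promoters ranked depended on the measure.

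**Figure D1:**
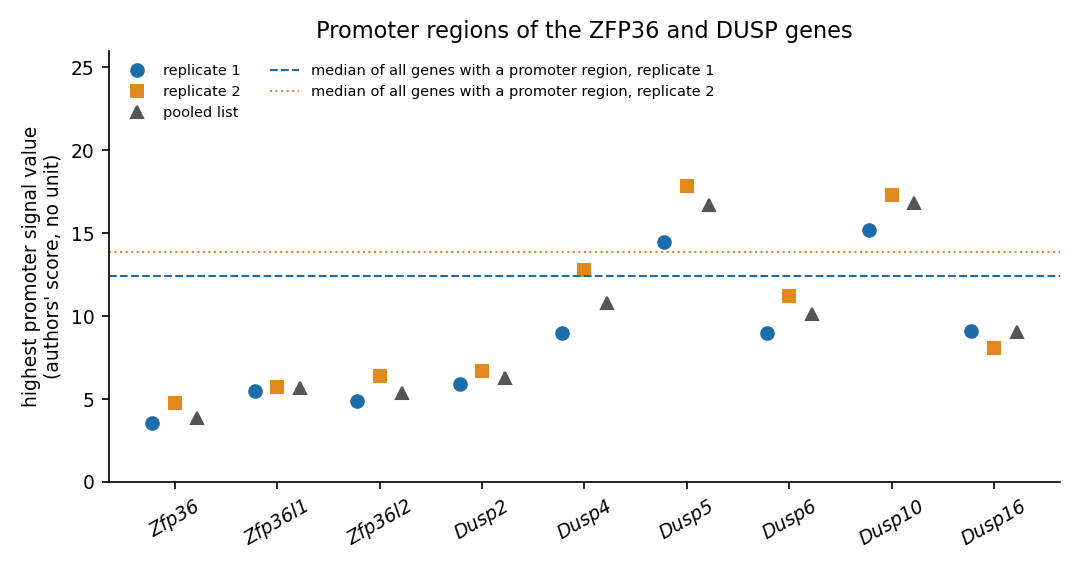
Highest promoter signal value (y axis, the authors' score, no unit) of each gene (x axis) in replicate 1 (circles), replicate 2 (squares) and the pooled list (triangles), with dashed and dotted lines at the medians over all genes with a promoter region in replicates 1 and 2. Dusp5 and Dusp10 are the genes with both replicate values above the lines, and the ZFP36 genes and Dusp2 lie at 6.71 or below in both replicates.

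Distal regions were numerous around the ZFP36 genes. The 9 genes had 40 distal regions in replicate 1, a mean of 4.44 per gene against 1.17 over all genes and 1.64 over genes with a promoter region in both replicates. In replicate 2 they had 18, a mean of 2 per gene against 0.433 over all genes and 0.619 over genes with an open promoter. At least 1 distal region was present for 9 of 9 genes in replicate 1, against 51.3 percent of all genes, and for 8 of 9 in replicate 2, against 27.8 percent. Both a promoter and a distal region were listed in both replicates for 8 of 9 genes, all but Dusp4. Of all genes with a promoter region in both replicates, 39.3 percent also had a distal region in both. In the pooled list Zfp36, Zfp36l1 and Zfp36l2 had 5 or more distal regions, 3 of 9 genes against 3.68 percent of all genes.

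**Figure D2:**
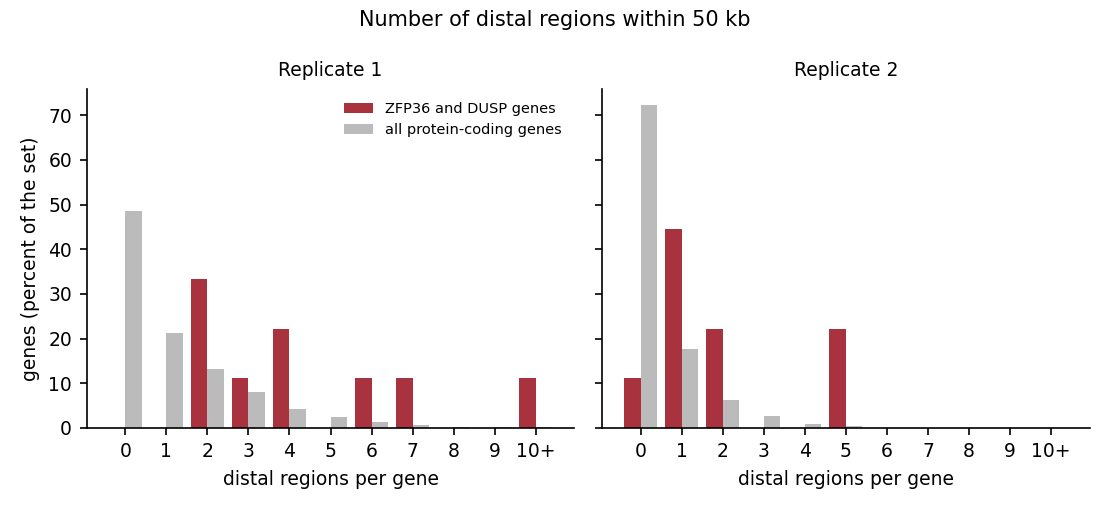
Share of genes (y axis, percent of the set) by number of distal regions within 50 kb (x axis, last bin 10 or more) for the ZFP36 and DUSP genes (left bars) and all protein-coding genes (right bars) in each replicate. In replicate 1 none of the 9 genes has fewer than 2 distal regions, and in replicate 2 Dusp4 is the gene with 0.

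Zfp36 encodes tristetraprolin, the founding member of the RNA-binding family, whose best-known target is the Tnf mRNA. It lies on the minus strand of chromosome 7 (chr7:28376784-28380253, GRCm38) and has 2 annotated start sites 998 bp apart. Both replicates and the pooled list held 2 separate promoter regions. The region at the downstream start site (chr7:28378926-28379675 in replicate 1) had a signal of 3.55 in replicate 1, 4.19 in replicate 2 and 3.75 in the pooled list. The other, with its summit 915 bp (replicate 1) or 939 bp (replicate 2) before the 5'-most start site, had 3.55, 4.77 and 3.86 in the same lists, and it lay just inside the 1 kb limit that defines a promoter region here. Both regions ranked within the lowest percentile of promoter regions in every one of these lists. Taking the strongest promoter region of each gene, Zfp36 had the lowest signal of the 9 in all 3. The first region also lay within 1 kb of a start site of Gm44710, so its signal cannot be given to Zfp36 alone.

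The 250 bases before the RefSeq start site of Zfp36 held 4 of the 17 strings searched. All 250 lay in annotated UTR, downstream of the 5'-most GENCODE start site. A CArG box, the element bound by serum response factor, began 58 bases before the RefSeq start site, with an EGR string at 105, an ETS string at 92 and a STAT string at 17 bases before it. EGR, ETS and STAT strings occurred in 4.70, 6.91 and 7.02 percent of all promoters. The RefSeq promoter table (GRCm38.p6) matched 7 of the 9 genes by symbol, all but Zfp36l2 and Dusp4. In the 250 bases before the start site a CArG box occurred in 2 of these 7 genes, Zfp36 and Dusp5, and in 1.47 percent of all 32851 promoters of the table. Other strings occurred in more of the 7. EGR strings were in 3, Zfp36, Dusp2 and Dusp16. SP/KLF strings were in 3, Dusp2, Dusp5 and Dusp16, against 10.4 percent of all promoters, and NF-Y strings, described below, in 4. The CArG box of Zfp36 is shown in capitals within 30 bases, chr7:28379267-28379296 on the minus strand, because Dusp5 also held one.
Zfp36: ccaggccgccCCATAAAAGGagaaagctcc

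Zfp36 had 6 distal regions in replicate 1 and 5 in replicate 2 (mean 5.50 ± 0.707, SD, n = 2). Only 2.44 percent of all genes had as many in replicate 1 and 0.415 percent in replicate 2. All 5 regions of replicate 2 were also in replicate 1. The strongest, 35.4 kb downstream of the 5'-most start site, had a signal of 12.3 in replicate 1, 8.42 in replicate 2 and 13.4 in the pooled list. It was intergenic and lay 5.80 kb from the start of Rps16, a ribosomal protein gene, much nearer than to Zfp36. The next, 40.5 kb downstream, had 7.54, 7.07 and 8.08 in the same lists and lay 1.02 kb from the start of Supt5, which encodes a transcription elongation factor. The third, 6.40 kb upstream, had 5.70, 6.27 and 5.91 and lay in an exon of Med29, a Mediator subunit gene. The start sites of 5 other protein-coding genes lie within 50 kb of that of Zfp36, so its high count was drawn from a gene-dense stretch whose regions it shares with neighbours. Each of the 3 regions held a CTCF string within 50 bp of its summit.

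Zfp36l1 encodes a related RNA-binding protein that limits cell cycle entry and shapes lymphocyte development. Its promoter region (chr12:80112799-80113493 in replicate 1) had a signal of 5.49 in replicate 1, 5.74 in replicate 2 and 5.67 in the pooled list, with the summit 102 bp, 61 bp and 96 bp before the nearest start site. No other gene had a start site within 1 kb of it. Zfp36l1 had 7 distal regions in replicate 1 and 2 in replicate 2 (mean 4.50 ± 3.54, SD, n = 2), and in the looser lists 11 in replicate 1 and 6 in replicate 2. The strongest, 14.4 kb upstream in an intron of 2310015A10Rik, had 10.6 in replicate 1, 12.8 in replicate 2 and 12 in the pooled list, higher than the promoter in each. The other region present in both replicates lay 3.9 kb downstream of the start site, in an exon of both Zfp36l1 itself and Gm26669. No other protein-coding start site lies within 50 kb of that of Zfp36l1. A further region of replicate 1, with a signal of 9.68, lay 51.9 kb away, just outside the window, and the outermost one inside it lay at 47.7 kb with a signal of 5.45.

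Zfp36l2, the third family member, is needed for blood stem cell and lymphocyte development in mice. It had the most distal regions of the 9 genes in replicate 1, with 10, and by the mean of the replicates (7.50 ± 3.54, SD, n = 2). In replicate 2 it had 5, as did Zfp36, and in the pooled list both had 6. Only 0.0958 percent of all genes had 10 or more in replicate 1. No other protein-coding start site lies within 50 kb of that of Zfp36l2, and Zfp36l2 was the nearest such start for every one of these regions. They spread over both sides of the gene, 3 upstream and 7 downstream in replicate 1. The strongest, 38.5 kb upstream in an intron of Thada, had a signal of 12.1 in replicate 1, 10.7 in replicate 2 and 13.2 in the pooled list. The next in the pooled list, 20.3 kb downstream, had 8.07 in replicate 1 and 9.61 in the pooled list, and in replicate 2 it was in the looser list alone, at 6.77. The third, 41.9 kb downstream in an intron of AC132455.2, had 7.85 in replicate 1, 9.53 in replicate 2 and 8.92 in the pooled list. A tight group of 3 regions 4.3 to 7.0 kb downstream of the start site was present in both replicates.

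The promoter of Zfp36l2 was low despite this landscape. Its main region (chr17:84187288-84188342 in replicate 1) had a signal of 4.86 in replicate 1, 6.42 in replicate 2 and 5.34 in the pooled list. A second region with its summit 639 bp before the start site was listed in replicate 1, at 3.56, and in the pooled list, at 3.64. Over 10 values (the strongest promoter signal and the number of distal regions in each of 5 lists, ranked over all genes), the genes most like Zfp36l2 were Rhof, Vsir and Cd74, with mean absolute rank differences of 0.573, 0.631 and 0.803 percentile points. They had 7, 7 and 6 distal regions in replicate 1, and promoter signals of 5.11, 5.60 and 5.47 there.

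The strongest distal summits of the 3 ZFP36 genes in the pooled list are shown because they carried the highest signals around these genes. Each runs from 50 bp before to 50 bp after the summit on the plus strand of GRCm38, with the motif strings that were searched for in capitals. The window of Zfp36 (chr7:28344806-28344906) holds a CTCF string, that of Zfp36l2 (chr17:84226350-84226450) an NF-Y and a CEBP string, and that of Zfp36l1 (chr12:80127340-80127440) none of the 17.
Zfp36: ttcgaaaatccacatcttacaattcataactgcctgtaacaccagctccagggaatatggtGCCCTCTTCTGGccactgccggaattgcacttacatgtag
Zfp36l1: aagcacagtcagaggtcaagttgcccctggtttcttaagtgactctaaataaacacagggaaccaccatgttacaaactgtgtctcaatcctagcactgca
Zfp36l2: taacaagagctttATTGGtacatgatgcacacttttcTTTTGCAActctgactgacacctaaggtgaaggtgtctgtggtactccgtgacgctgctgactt

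Dusp2, Dusp4 and Dusp5 encode nuclear phosphatases that act on MAP kinases, Dusp5 with a strong preference for ERK. Dusp2, which is expressed mainly in immune cells, had its main promoter region at chr2:127335801-127336324 in replicate 1, with a signal of 5.90 in replicate 1, 6.71 in replicate 2 and 6.28 in the pooled list. A second region further upstream (summit 694 bp before the start site in replicate 1 and 689 bp in replicate 2) had 4.33 in replicate 1 and 4.6 in replicate 2. In the pooled list 4 of the 9 genes had at least 2 separate promoter regions, Zfp36, Zfp36l2, Dusp2 and Dusp6, against 17.8 percent of all genes with a promoter region there. One of those of Dusp6 had its summit 1412 bp upstream of the start site and so counted as promoter and as distal, the only region of the 9 genes to do so.

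The distal side of Dusp2 was stronger than its promoter. Its region 34.1 kb upstream had a signal of 17.1 in replicate 1, 14.8 in replicate 2 and 18.3 in the pooled list, the highest distal value of the 9 genes in replicate 2 and the second highest in replicate 1 and the pooled list. It was intergenic, and the start of Stard7, a lipid transfer protein gene, lay slightly nearer, at 31.9 kb. The region 27.3 kb upstream had 12.8 in replicate 1, 14.2 in the pooled list and 10.8 in the looser list of replicate 2. Another, 35.2 kb upstream, had 7.76 in replicate 1, 7.38 in the pooled list and 5.86 in the looser list of replicate 2. All 3 regions of replicate 1 were upstream, and replicate 2 held the first of them.

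Dusp4 had a single promoter region (chr8:34806982-34807516 in replicate 1), with a signal of 8.97 in replicate 1, 12.8 in replicate 2 and 10.8 in the pooled list. It was the only gene of the 9 with no distal region in the thresholded list of replicate 2. Its 2 regions of replicate 1 lay 9.0 kb downstream of the start site in its own intron, at 9.51, and 38.8 kb downstream in an intron of the neighbouring gene Tnks, at 6.93. Both were in the looser list of replicate 2, at 8.48 and 5.27, so they missed the threshold of the IDR list and passed the looser one.

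Dusp5 had one of the 2 strongest promoters of the 9 genes. Its region (chr19:53528790-53529447 in replicate 1) had a signal of 14.5 in replicate 1, 17.8 in replicate 2 and 16.7 in the pooled list, at the 75.0, 84.6 and 77.1 percentiles of the promoter regions of those lists. A start site of AC137853.2 lies within 1 kb of the region. The nearest distal regions lay close to the edge of the window: one 49.3 kb upstream, with 11.8 in replicate 1, 8.35 in replicate 2 and 11.9 in the pooled list, and one 49.99 kb downstream, with 12 in replicate 1, 12.5 in the pooled list and 7.37 in the looser list of replicate 2. The downstream one lay 9.97 kb from the start of Nutf2-ps1. Dusp5 thus paired a strong promoter with no thresholded distal region within 49 kb.

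The bases before the start site of Dusp5 are shown because they lie inside this strong region and hold a pair of adjacent CArG boxes. The boxes begin 82 and 72 bases before the RefSeq start site. An SP/KLF string began at 97 bases and an NF-kB string at 90 bases before it, the NF-kB string overlapping the SP/KLF string and the first CArG box. A PU.1 string on the other strand began at 193 bases. In all promoters of the table an NF-kB string occurred in 4.65 percent, an SP/KLF string in 10.4 percent and a PU.1 string in 2.44 percent. The stretch covers chr19:53528895-53529108 on the plus strand, with the strings in capitals. Its last base lies 37 bases before the RefSeq start site and next to the GENCODE start site at 53529109.
Dusp5: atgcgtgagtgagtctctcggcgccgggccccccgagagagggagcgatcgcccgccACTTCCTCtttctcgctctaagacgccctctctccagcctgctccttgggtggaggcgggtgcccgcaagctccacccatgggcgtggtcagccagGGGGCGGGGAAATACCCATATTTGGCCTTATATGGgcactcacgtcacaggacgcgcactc

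The strongest distal summits of these 3 genes in the pooled list follow in the same form. That of Dusp2 (chr2:127302051-127302151) holds a CEBP string, and those of Dusp4 (chr8:34816285-34816385) and Dusp5 (chr19:53579046-53579146) each hold a CTCF string.
Dusp2: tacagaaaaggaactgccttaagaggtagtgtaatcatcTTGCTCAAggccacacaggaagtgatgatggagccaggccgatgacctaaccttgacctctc
Dusp4: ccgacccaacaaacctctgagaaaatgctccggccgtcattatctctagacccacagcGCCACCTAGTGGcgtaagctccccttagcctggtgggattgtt
Dusp5: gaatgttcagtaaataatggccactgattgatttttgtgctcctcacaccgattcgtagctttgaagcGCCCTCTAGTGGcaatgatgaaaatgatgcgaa

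Dusp6 encodes the cytosolic phosphatase that is selective for ERK. Its promoter region (chr10:99262899-99263395 in replicate 1) had a signal of 9.0 in replicate 1, 11.2 in replicate 2 and 10.1 in the pooled list, with the summit 40 to 47 bp before the 5'-most start site. The last of its start sites, 2410 bp downstream, had no region within 1 kb in any of the 5 lists. The strongest distal region, 5.7 kb downstream of the start site and past the 3' end of Dusp6, lay in an exon of Gm34921 and had 11.1 in replicate 1, 12.1 in replicate 2 and 12.1 in the pooled list. A second, 21.2 kb upstream, had 7.02 in replicate 1, 7.87 in the pooled list and 5.83 in the looser list of replicate 2. No other protein-coding start site lies within 50 kb of that of Dusp6.

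Dusp10 and Dusp16 encode phosphatases that act mainly on p38 and JNK rather than ERK. Dusp10 had the other of the 2 strongest promoters (chr1:184033575-184034597 in replicate 1), with a signal of 15.2 in replicate 1, 17.3 in replicate 2 and 16.8 in the pooled list. The open start site was not the 5'-most one. It lay 21079 bp further downstream, and the 5'-most start site, which was not CpG-rich, had no region within 1 kb in any of the 5 lists. A start site of 1700056E22Rik lies within 1 kb of the open region. With the 5'-most start site alone, 8 of the 9 genes would have had a promoter region in both replicates.

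This choice of start site also set the distal count of Dusp10. From the 5'-most start site it had 4 distal regions in replicate 1 and 1 in replicate 2. From the open start site, a count made after the data were seen, it had 3 in replicate 1 and 0 in replicate 2. The strongest, 33.3 kb upstream of the 5'-most start site with a signal of 15.3 in replicate 1, 12.9 in replicate 2 and 15.0 in the pooled list, lies 54.4 kb upstream of the open one in replicate 1. It was intergenic, with Dusp10 the nearest protein-coding start.

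The open start site of Dusp10 is preceded by 3 NF-Y strings, beginning 169, 161 and 49 bases before it, the 2 farthest of them close together on opposite strands. NF-Y strings occurred in the 250 bases before the start of Zfp36l1, Dusp6, Dusp10 and Dusp16, 4 of the 7 matched genes, and in 33.8 percent of all promoters of the table. The 250 bases, at chr1:184034131-184034380 on the plus strand, are shown with the strings in capitals because they mark the start site that was open.
Dusp10: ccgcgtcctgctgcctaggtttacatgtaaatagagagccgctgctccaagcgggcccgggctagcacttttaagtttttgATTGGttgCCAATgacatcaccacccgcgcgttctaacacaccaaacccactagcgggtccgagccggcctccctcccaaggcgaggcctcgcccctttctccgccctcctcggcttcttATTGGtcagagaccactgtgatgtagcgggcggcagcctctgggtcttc

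Dusp16 was open at its first 2 start sites, which lie 150 bp apart, and not at the other 5, which lie 1291 to 66567 bp further downstream. Its promoter region (chr6:134792551-134792923 in replicate 1) had a signal of 9.09 in replicate 1, 8.05 in replicate 2 and 9.04 in the pooled list, and at 373 bp in replicate 1 it was short. Its distal regions all lay upstream, 4 in replicate 1 and 2 in replicate 2 (mean 3 ± 1.41, SD, n = 2). The strongest, 10.2 kb upstream, had 17.4 in replicate 1, 14.7 in replicate 2 and 18.4 in the pooled list, the highest distal value of the 9 genes in replicate 1 and in the pooled list. A second, 3.9 kb upstream, had 12.5, 12.1 and 13.2 in the same lists. The third, 32.0 kb upstream, had 11.5 in replicate 1 and 12.04 in the pooled list, 8.15 in the looser list of replicate 2, and lay 5.56 kb from the start of Crebl2.

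The strongest distal summits of Dusp6 (chr10:99268895-99268995), Dusp10 (chr1:183979963-183980063) and Dusp16 (chr6:134802784-134802884) in the pooled list are shown as counterparts of those above. The window of Dusp16 holds an NF-Y string, and those of Dusp6 and Dusp10 hold none of the 17 strings.
Dusp6: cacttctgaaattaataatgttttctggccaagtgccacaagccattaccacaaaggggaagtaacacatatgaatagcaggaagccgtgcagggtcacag
Dusp10: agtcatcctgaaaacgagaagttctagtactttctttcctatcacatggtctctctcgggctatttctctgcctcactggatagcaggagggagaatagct
Dusp16: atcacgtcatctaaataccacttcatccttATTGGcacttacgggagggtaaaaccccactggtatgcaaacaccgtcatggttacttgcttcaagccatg

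**Figure D3:**
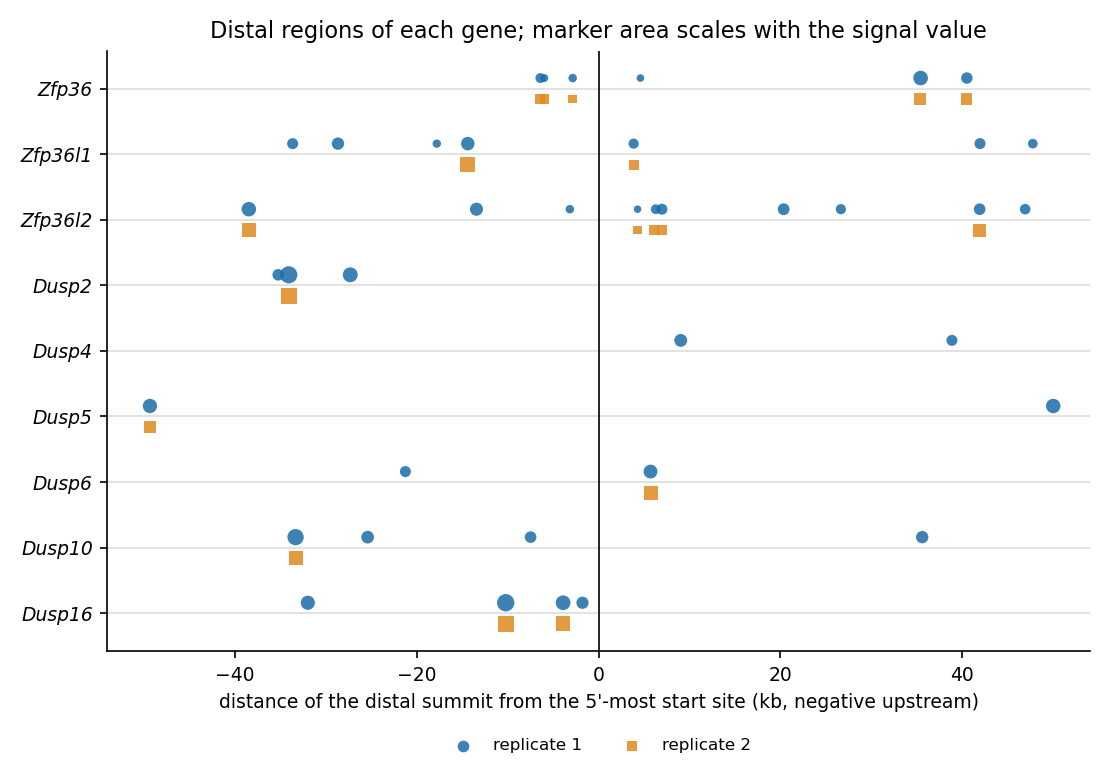
Distance of each distal summit from the 5'-most start site (x axis, kb, negative upstream) for each gene (rows), with replicate 1 as circles above the line and replicate 2 as squares below it, and marker area in proportion to the signal value. Zfp36l2 has 10 circles on both sides of its start, Dusp2 has distal regions upstream alone, and every square has a circle above it.

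Set side by side, the strongest distal region outranked the strongest promoter region around most of these genes. It had the higher signal in both replicates for 6 of the 8 genes that had both kinds in both replicates, against 28.5 percent of such genes overall. The 6 were Zfp36, Zfp36l1, Zfp36l2, Dusp2, Dusp6 and Dusp16. For Dusp5 the promoter was higher in both replicates, and for Dusp10 the values were 15.3 distal and 15.2 promoter in replicate 1 and 12.9 distal and 17.3 promoter in replicate 2. Among all distal regions, those of the 9 genes had a median percentile of 28.4 in replicate 1, 18.9 in replicate 2 and 24.5 in the pooled list. In the looser lists it was 52.2 in replicate 1 and 31.3 in replicate 2.

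**Figure D4:**
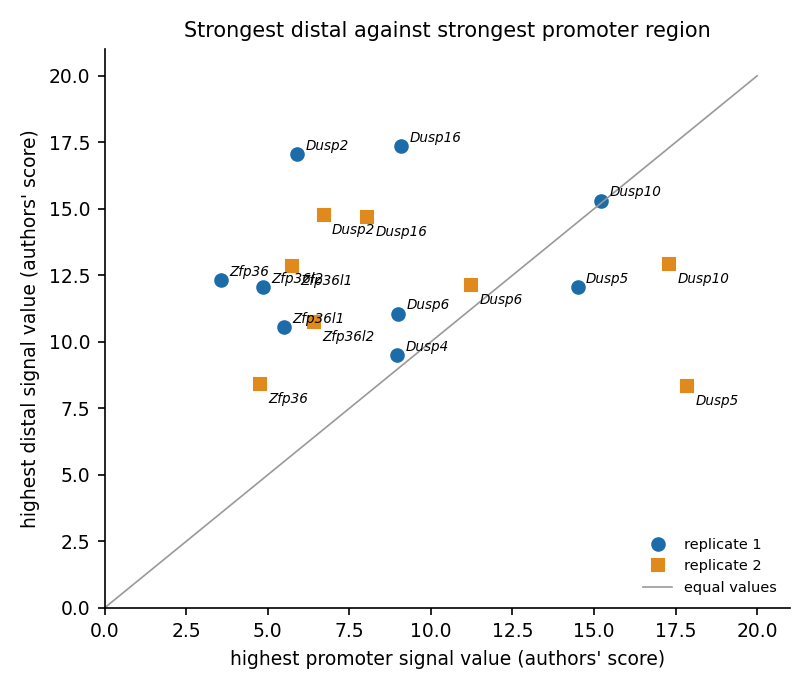
Highest distal signal value (y axis) against highest promoter signal value (x axis, both the authors' score) for each gene in replicate 1 (circles) and replicate 2 (squares), with a line of equal values. The ZFP36 genes, Dusp2 and Dusp16 lie well above the line in both replicates, and Dusp5 lies below it in both.

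Every distal region of replicate 2 was also in replicate 1, and fewer of those of replicate 1 were in replicate 2. Of the 40 distal regions of replicate 1, 18 overlapped a region of the thresholded list of replicate 2 by at least 1 bp (45.0 percent, 95 percent Wilson interval 30.7 to 60.2), against 35.0 percent of all distal regions. In the looser list of replicate 2, 34 of the 40 were found (85 percent, 70.9 to 92.9), against 78.6 percent of all. In the other direction 18 of 18 regions of replicate 2 overlapped one of replicate 1, against 98.2 percent of all. The 18 regions found again had a median signal of 9.20 in replicate 1 and the 22 not found 7.77, with ranges that overlapped. These intervals cover counting error only, and neighbouring regions of 1 gene are not independent.

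By place, 22 of the 40 distal regions of replicate 1 were intergenic, 13 lay in introns and 5 in exons, against 44.0, 49.98 and 6.02 percent of all distal regions. The member gene was the nearest protein-coding start for 31 of the 40, and 3 lay inside the member gene itself. The 9 that were nearer to another gene belonged to Zfp36, Dusp2, Dusp5, Dusp10 and Dusp16.

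Motif strings at the distal summits were read as letters in a window, with no statement on which factor binds. In replicate 1, 24 of 40 summits held at least 1 of the 17 strings (60.0 percent, 44.6 to 73.7), against 57.01 percent of all distal summits. CTCF was the most frequent, in 9 of 40 (22.5 percent) against 20.8 percent of all. CEBP strings, the motif of the factors that drive granulocyte development, occurred in 5 of 40 (12.5 percent, 5.46 to 26.1) against 6.39 percent. PU.1 strings, the motif of a factor required for myeloid cells, occurred in 2 of 40 (5.00 percent, 1.38 to 16.5) against 8.29 percent. AP-1 strings occurred in 2 of 40 as well, against 6.69 percent, and NF-kB strings in 2 of 40, against 2.25 percent. In each case the share over all distal summits lay inside the interval of the members' share. In replicate 2 the most frequent was NF-Y, in 4 of 18 summits (22.2 percent) against 11.5 percent of all. CTCF and CEBP strings each occurred in 3 of 18 (16.7 percent), against 17.1 and 6.88 percent of all. PU.1 strings occurred in 0 of 18 (upper bound 17.6 percent), against 9.36 percent of all. These shares over all distal summits also lay inside the intervals of the members' shares.

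Related genes were read in the thresholded lists against the same background of 39.8 percent of all genes with a promoter region in both replicates. All 13 genes of deadenylation and decay of AU-rich mRNAs had one, the highest by the mean of the replicates being Xrn1, the 5'-to-3' exonuclease, with 19.9 in both replicates, and Dcp1a, a decapping factor, with 21.7 in replicate 1 and 17.9 in replicate 2. Of the MAP kinase cascade, 15 of 18 genes did, among them Map2k4, which activates JNK, with 17.4 in replicate 1 and 21.2 in replicate 2. Map3k1 and Mapk13 had none in the thresholded list of either replicate. The looser lists held one for Map3k1 in both replicates, at 4.22 and 3.11, and for Mapk13 in replicate 1, at 3.29. Of 13 genes whose transcripts ZFP36 proteins bind, 2 were open in both replicates, Ptgs2, the inducible cyclooxygenase gene, with 12.2 and 12.1, and the chemokine gene Cxcl2, with 12.2 and 11.8. Ccl2 and Ccl3 had no promoter region in the thresholded list of either replicate, and the looser lists held one for Ccl3 in both, at 5.54 and 5.49. In the pooled list 4 of the 13 had a promoter region, against 46.7 percent of all genes. Distal regions were still present near several of these targets, 7 in replicate 1 and 4 in replicate 2 near Tnf, and 6 and 4 near Il1b. These counts are among the highest of the 13, whose median was 3 in replicate 1 and 1 in replicate 2. Over all genes the medians were 1 and 0, and Ccl2 had 0 in both.

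Of the 5 other members of the 2 families, Dusp1 and Dusp7 had a promoter region in the thresholded lists of both replicates and Dusp8, Dusp9 and Zfp36l3 did not. The looser lists held one for Dusp8 in both replicates, at 5.30 and 7.72. Dusp1, an inducible nuclear phosphatase for p38 and JNK, had a promoter signal of 11.4 in replicate 1 and 14.8 in replicate 2, and Dusp7, which acts on ERK in the cytosol, 13.2 and 12.9. Dusp1 had 6 distal regions in replicate 1 and 4 in replicate 2, a count similar to those of the ZFP36 genes, and Dusp7 had 5 and 0.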

How the data were processed

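ATAC-seq peak lists of 2 neutrophil libraries on mm10 (GRCm38) were used, 5 lists in all: the IDR thresholded and the pseudoreplicated list of each replicate, and the conservative IDR list of both pooled, per the file headers. An aligner or peak caller was not given in the sources used here. The signal value is a score the authors deposited for each peak, with no stated definition, and the deposited −log10 p comes from the authors' caller. The named distal regions present in both lists of a replicate had the same value in each, so these are not separate measurements. Read depth is not given.

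Overlapping peaks were merged, and a region kept its highest score and that peak's summit (Python 3.11.15, numpy 2.4.6, scipy 1.17.1; figures with matplotlib 3.10.9). Start sites came from GENCODE M21. A CpG-rich start site had a GC share of at least 0.5 and an observed over expected CpG ratio of at least 0.6 within 500 bp on either side. Percentiles are shares of a list's regions with a lower value, with each tied value counted as 0.5. Strings were searched on both strands in 50 bp on either side of a summit, or in the 250 bases before the RefSeq start site: AP-1 TGANTCA, CRE TGACGTCA, ETS CCGGAAG, PU.1 GAGGAAGT, CEBP TTGCNNAA, RUNX AACCACA, STAT TTCNNNGAA, EGR GCGNGGGCG, SP/KLF GGGGCGGGG, NF-Y CCAAT, NRF1 GCGCATGCG, E-box CACGTG, NF-kB (GGG, 3 bases, TTCC), ISRE (GAAA, 2 bases, GAAA), CTCF (CC, 3 bases, AG, 2 bases, GGC), GRE (G, 1 base, ACA, 3 bases, TGT, 1 base, C) and the CArG box. Strings may overlap. Shares have 95 percent Wilson intervals, which cover counting error only. The counting of regions and strings was tested on simulated data.

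With 1 group no test between groups exists, and every value is a description beside the share of all genes or regions. The 9 genes and the related lists were chosen with earlier results of these data known. Named were all 9 genes, their promoter regions and their 3 strongest pooled distal regions, of each related list the 2 genes with the highest promoter signal and up to 2 in alphabetical order with none, genes starting near or spanning a named region, and the 3 genes most like Zfp36l2. Zfp36l3, Tnf, Il1b, single markers and the distal regions of Zfp36l1 and Zfp36l2 beyond their 3 strongest were named after their values were seen. The values of 1 gene that this rule names are not reported here. The other lists deposited for each replicate were not used here.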

Additional observations from a re-analysis of the deposited data

How the results depend on the processing

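Over 34 recomputed values of the 6 main results, 28 stayed within their error or within 1.5 times the count. Distal counts and promoter percentiles were judged by the SD of the 2 replicates. Leaving out 1 replicate cannot move them beyond that SD, so those values among the 28 are no check. Genes with regions in both replicates have them in each one, so leaving out 1 replicate cannot lower those counts. These values are no check either. Keeping only peaks at or above the median signal of their list left 2 of 9 genes with a promoter region in both replicates and 1 with both a promoter and a distal region in both, Dusp10. In the pseudoreplicated lists the share of replicate 1 distal regions found in replicate 2 was 69.0 percent (56.2 to 79.4), against 50.8 percent of all distal regions, and the median promoter percentile, averaged over replicates, was 44.4 against 20.7. Ranked by −log10 p, a measure added after seeing the data, it was 39.1. With 100 bp on either side of a summit, 82.8 percent of the 58 member summits of both replicates held a string. Of all distal summits 73.9 percent did, where 50 bp gave 60.3 and 57.3 percent. All 18 distal regions of replicate 2 overlapped one of replicate 1, so the 58 are not separate regions. For the percentile in the pseudoreplicated lists, the members' median promoter signals were 8.97 and 8.05 in replicates 1 and 2, as in the thresholded lists. The median over all promoter regions was 8.64 and 10.2 there, against 11.1 and 13.1 in the thresholded lists. The members' values stayed and the regions they were ranked among changed. The cause of the other shifts was not tested, apart from the wider window, which holds more bases.

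Leaving out 1 replicate at a time kept 9 of 9 promoters open and gave 8 to 9 genes with both kinds of region. Neither count could fall, because genes counted in both replicates count in each. The median per gene was 1 to 4 distal regions, and the median promoter percentile 9.11 to 32.3. A string was held by 60.0 to 61.1 percent of summits. The distal counts of single genes moved with the replicate: Zfp36l1 had 7 in replicate 1 and 2 in replicate 2, and Zfp36l2 10 and 5. A 100 kb window gave a median of 4 distal regions per gene and assignment to the nearest gene 1.5, against 2.5. For single genes, 36 of 46 recomputed distal counts stayed within the error between replicates, and 36 of 45 promoter counts within 1.5 times the count. The distal counts that left out 1 replicate stayed within that error by construction, so they are no check. A promoter count that is equal in both replicates cannot move when 1 is left out, which held for all genes but Zfp36l2. For single strings, 91 of 102 shares stayed inside their interval. Many of these say little. CRE, CArG box, GRE, EGR, NRF1 and ISRE strings were at 0 in the main result and in every alternative. The shares that left out 1 replicate came from part of the same summits. PU.1, RUNX and STAT strings, which the main result held, were at 0 without replicate 1. No paired analysis was possible because there is 1 group. The lists give no read depth, so its part in the shorter lists of replicate 2 was not tested.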
